A study of Mus musculus with 18 samples.

Results

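The 10 genes of hydrogen peroxide defence described here were measured in erythroblasts from mice that carry different pairs of alleles of Klf1, the gene for the erythroid transcription factor KLF1. They were chosen by symbol among the 23365 rows of raw counts and comprise the 6 peroxiredoxins (Prdx1 to Prdx6), sulfiredoxin (Srxn1), the glutathione peroxidases Gpx1 and Gpx4, and catalase (Cat). All 10 were among the 13405 genes with enough counts to be tested. RNA-seq was made from spleen cells sorted for CD71 and TER119, surface proteins of immature red cells, with 18 libraries that carry 18 different mouse numbers in the labels. The wild-type group (WT/WT) had 3 libraries. The groups with an altered allele were WT/D45 (1 D45 allele beside a wild-type allele, 3 libraries), D45/D45 (2 D45 alleles, 3 libraries) and WT/KO (1 knockout allele beside a wild-type allele, 5 libraries). The compound heterozygote D45/KO had a D45 allele beside a knockout allele and no wild-type allele, in 4 libraries. D45 stands for MommeD45, a missense change in the linker between zinc fingers of KLF1 called linker-2. It is 1 mutant line, and there was no group with 2 knockout alleles. Age, sex, strain and how the knockout allele was made are not given in the sources used here.

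Hydrogen peroxide forms when superoxide is dismutated, and haemoglobin makes red cells a steady source of superoxide. Peroxiredoxins reduce peroxide with a reactive cysteine, which thioredoxin then restores in most of them, though not in PRDX6. Glutathione peroxidases use glutathione and a selenocysteine, and catalase splits peroxide without a reducing cofactor. The mature red cell, which has lost its nucleus, lives on the PRDX2, GPX1 and catalase protein it made as an erythroblast.

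The sorted cells carried their markers: Tfrc, which encodes CD71, was present in every library, and 9 of the 12 listed erythroid markers were among the genes tested. Libraries held 9.36 to 56.3 M counts (M, 1000000). Klf1 itself averaged 821 ± 322 CPM (counts per 1000000, scaled between libraries; SD, n = 3) in WT/WT and 415 ± 311 (SD, n = 5) in WT/KO, a difference that did not pass the test (edgeR quasi-likelihood, adjusted p = 0.818). In 9 libraries, a panel of 14 B lymphocyte genes averaged 3.44 to 6.72 on the log2 CPM scale, and in the other 9 it averaged −2.70 to −1.26. The former are called B-rich here and the latter B-poor. In the order of the deposited counts, the 9 B-rich libraries stand first and the 9 B-poor ones last. The labels do not say what this order stands for, so the B split cannot be told apart from it. B-rich libraries made up 1 of 3 in WT/WT, 1 of 3 in WT/D45, 1 of 3 in D45/D45, 3 of 5 in WT/KO and 3 of 4 in D45/KO. The erythroid panel averaged 9.66 to 11.3 in B-rich and 11.7 to 12.5 in B-poor libraries. In bulk samples, fewer cells of a type and less RNA per cell cannot be told apart.

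Prdx6 rose in D45/KO and was the member that differed between genotypes. Its product is the peroxiredoxin with a single catalytic cysteine, which also has a phospholipase activity and reduces oxidised phospholipids. The mouse genome holds a close copy without introns, Prdx6b, so the sequences are shown for what separates the genes in short reads. These are the first 90 coding bases of each, from the GENCODE M21 annotation of GRCm38, with capitals at the 3 bases that differ.
Prdx6: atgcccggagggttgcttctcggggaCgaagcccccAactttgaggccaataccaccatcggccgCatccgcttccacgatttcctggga
Prdx6b: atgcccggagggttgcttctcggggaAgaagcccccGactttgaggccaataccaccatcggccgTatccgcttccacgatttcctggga
Over the coding sequence 624 of 672 bases were identical (92.9%). Of the 2338 stretches of 50 bases in the Prdx6 transcript, 7 (0.299%) also occur in Prdx6b. Prdx6b had 0 to 6 counts per library, too few to be tested. Prdx6 lies on chromosome 1 and Prdx6b on chromosome 2, and no annotated exon of another gene overlaps Prdx6.

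In WT/WT, Prdx6 was at 30.2, 23.6 and 36.9 CPM in replicates 1 to 3. WT/D45 libraries had 38.0, 22.6 and 19.7 CPM of Prdx6, and WT/KO libraries 42.2, 25.6, 24.2, 31.9 and 27.3 CPM. D45/D45 libraries had 39.3, 64.2 and 47.9 CPM. The D45/KO libraries had 102.8, 77.0, 103.8 and 116.0 CPM of Prdx6. The lowest D45/KO library thus lay above the highest of the other 14 libraries, a D45/D45 one, and Prdx6 alone among the members did so. Of all genes tested, 0.567% had every D45/KO library above every other library. Group means were 30.3 ± 6.67 CPM in WT/WT, 26.8 ± 9.83 in WT/D45, 50.5 ± 12.6 in D45/D45, 30.2 ± 7.29 in WT/KO and 99.9 ± 16.4 in D45/KO (SD, n = 3, 3, 3, 5 and 4). WT/WT, WT/D45 and WT/KO overlapped. The lowest D45/D45 library, at 39.3 CPM, was above the highest WT/WT library, at 36.9 CPM, and below the highest WT/KO library, at 42.2 CPM. How many of all genes separate D45/D45 from WT/WT in this way was not counted.

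**Figure D1:**
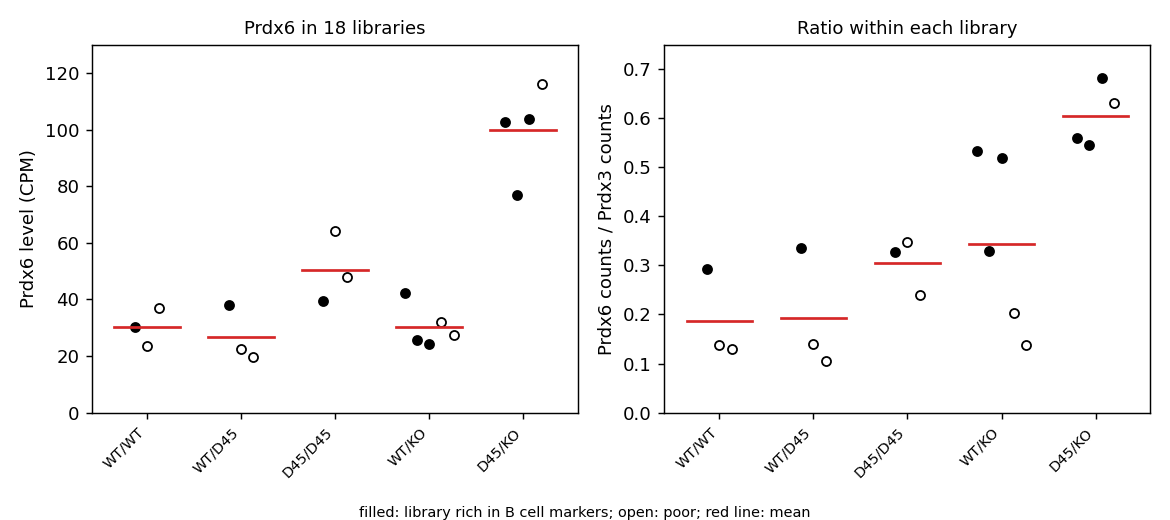
Prdx6 level (CPM, left y axis) and ratio of Prdx6 to Prdx3 counts (right y axis) in each of the 18 libraries by genotype (x axes), with filled points for libraries rich in B lymphocyte transcripts, open points for poor ones and a red line at each mean. The 4 D45/KO libraries, at 77.0 to 116.0 CPM, lie above the other 14, whose highest is 64.2 CPM in D45/D45, and their ratios of 0.546 to 0.682 lie above the highest WT/KO ratio of 0.534.

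Against WT/KO, which differs from D45/KO in having a wild-type in place of the D45 allele, Prdx6 rose 3.30-fold in D45/KO, by 1.72 ± 0.25 (SE) on the log2 scale (95% interval 1.19 to 2.25; edgeR quasi-likelihood test with Benjamini-Hochberg adjustment over all genes, adjusted p = 0.00612). This was 1 member of 10 called, where the test called 0.172% of all genes, 0.112% as higher and 0.0597% as lower. Without overlap between D45/KO and WT/KO libraries there was also 1 member, Prdx6, beside 2.71% of all genes. Against WT/WT it rose by 1.72 ± 0.30 (adjusted p = 0.0130), again as the only member, with 0.619% of all genes called, 0.261% as higher and 0.358% as lower. The libraries of these groups did not overlap for Prdx6, as for 10.2% of all genes. That comparison lost its call without WT/WT replicate 2 (1.57, adjusted p = 0.127) and without D45/KO replicate 4 (1.64, adjusted p = 0.0505). Both comparisons use the same D45/KO libraries. Over the 5 genotypes at once, Prdx6 was again the 1 member called (adjusted p = 0.00650), among 0.336% of genes.

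The other comparisons called no member. Prdx6 differed by 0.99 ± 0.29 between D45/KO and D45/D45 (unadjusted p = 0.00357, adjusted p = 1 in edgeR), where the test called 0.00746% of genes. Between D45/D45 and WT/WT it differed by 0.74 ± 0.31 (unadjusted p = 0.0278, adjusted p = 1 in edgeR), where 0% of genes were called and 545 had an unadjusted p under 0.05. The interval for WT/KO against WT/WT ran from −0.55 to 0.55 around 0.00, and that for WT/D45 against WT/WT from −0.82 to 0.47 around −0.17. In these 2 comparisons 0% of genes were called, with 573 and 194 at an unadjusted p under 0.05. DESeq2 and limma-voom also called 0 members in these 4 comparisons. In the authors' deposited table, which compares WT/WT with WT/KO, the log2 difference of Prdx6 was −0.0048 with a false discovery rate of 0.997. Whether a D45 allele acts differently beside a knockout than beside a wild-type allele was tested as an interaction, which came to 1.90 ± 0.40 for Prdx6 (edgeR, unadjusted p = 0.000178, adjusted p = 0.433) and so did not pass, with 0.00746% of genes called. DESeq2 called Prdx6 in the interaction among 15 genes in all, and limma-voom called 0 members and 0 genes. With the mean of the B panel as a covariate, the interaction was called for Prdx6 (1.90 ± 0.37, adjusted p = 0.0381) and Srxn1 (2.04 ± 0.38, adjusted p = 0.0272), beside 0.179% of genes. At an unadjusted p under 0.05, 2 members (Prdx6 and Gpx4) stood out for D45/KO against WT/KO beside 5.41% of all genes. For D45/KO against WT/WT it was Prdx6 beside 8.93%, for D45/KO against D45/D45 Prdx6 beside 2.26%, for D45/D45 against WT/WT Prdx6 beside 4.07% and for the interaction Prdx6 beside 2.45%. No member did so for WT/D45 (1.45% of genes) or WT/KO (4.27%) against WT/WT.

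The Prdx6 difference was also taken within each side of the B lymphocyte split. Among B-rich libraries alone, 3 of D45/KO against 3 of WT/KO, it was 1.67 (adjusted p = 0.0136). Among B-poor libraries alone, 1 D45/KO against 2 WT/KO, it was 2.02, a value without replication on the D45/KO side. Against WT/WT, B-rich libraries alone gave 1.59 (adjusted p = 0.388), with 1 WT/WT library. Without the composition scaling (trimmed mean of M-values, TMM), which corrected libraries by factors of 0.366 to 1.93, Prdx6 was at 100.3 to 152.6 unscaled CPM in D45/KO and at most 81.7 elsewhere.

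Markers of other cells were measured beside Prdx6. The summed level of 8 megakaryocyte markers was 429 to 819 CPM in D45/KO, 211 to 619 in D45/D45, 49.0 to 265 in WT/KO, 42.3 to 173 in WT/D45 and 32.9 to 204 in WT/WT. Most of the D45/KO sum was Itga2b, an integrin of megakaryocytes that early erythroid progenitors also carry, at 324 to 654 CPM. Vwf was at 64.8 to 111 CPM in D45/KO, 40.2 to 119 in D45/D45, 9.41 to 78.9 in WT/KO and 11.8 to 46.6 in WT/WT. Gp9, a platelet membrane glycoprotein gene, was at 26.7 to 52.9 CPM in D45/KO, 31.98 to 57.9 in D45/D45, 7.67 to 46.8 in WT/KO and 11.7 to 24.6 in WT/WT. Gp6, a platelet collagen receptor gene, was at 1.22 to 3.43 CPM in D45/KO and at most 1.17 in the other libraries. The platelet genes Pf4 and Ppbp had maxima of 3.42 and 2.02 CPM over all libraries, and Gp1ba one of 7.14 in WT/KO. Summed macrophage markers (11 tested of 12) ranged over 90.5 to 2469 CPM in D45/KO, while WT/KO libraries held 107 to 2352 CPM. Their highest value was in D45/KO replicate 2, the library with the lowest Prdx6 of its group. Summed neutrophil markers (11) were 19.8 to 221 CPM in D45/KO, 5.60 to 53.8 in WT/KO and 120 to 221 in WT/WT. The part of these cells in the Prdx6 values was not tested.

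Prdx2, the abundant peroxiredoxin of the red cell, did not pass the test in any comparison. In WT/WT, Prdx2 was at 1354, 4486 and 7050 CPM. WT/D45 libraries had 1475, 4086 and 4495 CPM of it, and D45/D45 libraries 1896, 5486 and 6599 CPM. WT/KO libraries had 1090, 1168, 917, 5973 and 5599 CPM, and D45/KO libraries 1878, 2352, 2933 and 4402 CPM. Over all libraries the genotypes overlapped, and the low value or values of each group were its B-rich libraries. Prdx2 was at 917 to 2933 CPM in the 9 B-rich libraries and 4086 to 7050 in the 9 B-poor ones. Among B-rich libraries alone, those of D45/KO, at 1878 to 2933 CPM, lay above those of WT/KO, at 917 to 1168 CPM. How many of all genes do so was not counted. D45/KO differed from WT/KO by −0.03 ± 0.75 (adjusted p = 0.999), with a 95% interval from −1.60 to 1.55 that leaves room for a change of either sign. With the B panel as a covariate the difference was 0.32 ± 0.28 (adjusted p = 0.710). Prdx2 lies on chromosome 8 like Klf1, with 5 protein-coding genes between them, so an effect of sequence linked to the D45 or knockout allele cannot be told apart from one of KLF1. Its exons overlap those of Rnaseh2a on the opposite strand, strand use in the counting is not given, and 23.8% of its stretches of 50 bases recur in other annotated genes such as the pseudogene Tdpx-ps1, so its counts are uncertain, and how such reads were assigned was not tested.

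Prdx2 supplied 79.3% to 95.1% of the counts of the 6 peroxiredoxins in each library. Prdx6 supplied 2.41% to 4.51% of them in D45/KO and 0.489% to 1.90% in WT/WT. WT/KO libraries, at 0.461% to 3.16%, overlapped the D45/KO range. Since the share moves with Prdx2, and so with the B split, Prdx6 was also set against Prdx3, a ratio chosen after these values were seen. Prdx3 moved with the B split too, though less. Its median in B-poor over B-rich libraries was 1.62, beside 3.72 for Prdx2, so this ratio is not free of the split. The ratio of Prdx6 to Prdx3 counts was 0.605 ± 0.0636 (SD, n = 4) in D45/KO, 0.344 ± 0.180 (n = 5) in WT/KO, 0.305 ± 0.0566 (n = 3) in D45/D45, 0.193 ± 0.124 (n = 3) in WT/D45 and 0.186 ± 0.0921 (n = 3) in WT/WT. The D45/KO libraries, at 0.546 to 0.682, lay above the WT/KO libraries, at 0.138 to 0.534. Among the WT/KO libraries the 3 B-rich ones held the high end, at 0.330 to 0.534, and the B-poor ones were at 0.202 and 0.138. The log2 ratio differed by 0.99 between D45/KO and WT/KO (two-sided exact permutation p = 0.0476 over 126 splits, adjusted p = 0.0476 over 3 comparisons). Against WT/WT it differed by 1.80 and against D45/D45 by 1.0 (exact permutation p = 0.0286 each, the smallest that 35 splits allow, adjusted p = 0.0429). Prdx6 had already been seen to be highest in D45/KO. The permutation p-values do not allow for that choice of gene and ratio, so no conclusion is drawn from them.

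Prdx1, Prdx3, Prdx4 and Prdx5 did not pass the test in any comparison. Prdx1, a cytosolic relative of Prdx2, averaged 95.6 ± 43.2 CPM in WT/WT, 67.4 ± 8.52 in WT/D45, 83.4 ± 12.2 in D45/D45, 86.3 ± 46.8 in WT/KO and 85.9 ± 29.2 in D45/KO (SD; n = 3, 3, 3, 5 and 4, as for all group means that follow). The order of these means is within their spread. Prdx3, the mitochondrial peroxiredoxin, averaged 187 ± 92.0, 154 ± 37.5, 168 ± 41.8, 112 ± 63.2 and 165 ± 21.8 CPM in the same order of genotypes. D45/KO differed from WT/KO by 0.56 ± 0.38 for Prdx3 (adjusted p = 0.927), and it passed in 1 of the alternatives run, B-rich libraries alone, at 1.27 (adjusted p = 0.0275), where 7.55% of genes were called. Prdx4, which works in the endoplasmic reticulum, averaged 23.1 ± 7.41, 20.7 ± 2.82, 21.3 ± 2.86, 15.6 ± 8.66 and 20.7 ± 5.89 CPM. Prdx5, found in mitochondria, peroxisomes and cytosol, averaged 11.1 ± 8.84, 13.4 ± 8.02, 11.8 ± 4.38, 16.7 ± 8.56 and 13.9 ± 6.48 CPM. Prdx5 counts may include reads of Trmt112, which overlaps it on the opposite strand and shares 29.7% of its stretches of 50 bases, and 10.9% of those of Prdx1 recur in other annotated genes. For D45/KO against WT/KO the 95% intervals were −0.75 to 0.73 for Prdx1, −0.48 to 1.30 for Prdx4 and −1.50 to 0.97 for Prdx5.

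**Figure D2:**
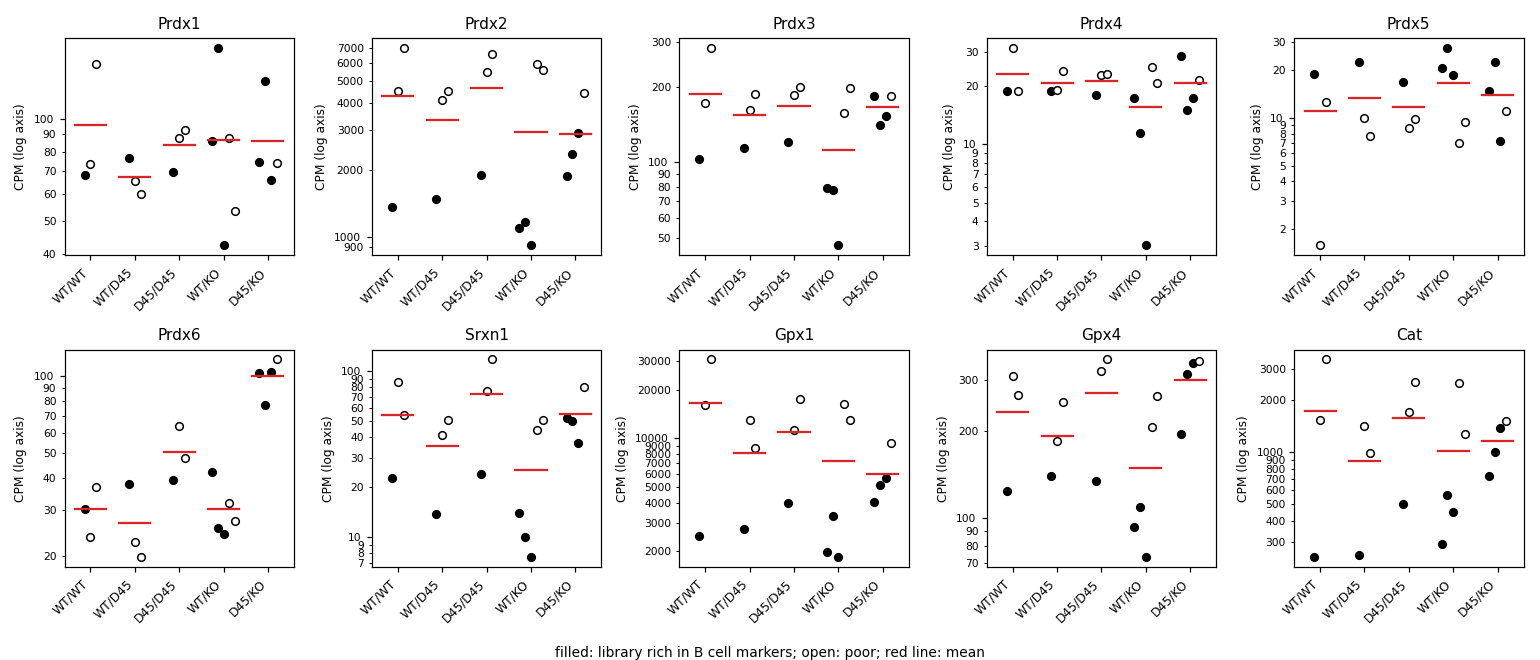
Level (CPM, logarithmic y axes that differ between panels) of each of the 10 members in the 18 libraries by genotype (x axes), with filled points for libraries rich in B lymphocyte transcripts, open points for poor ones and red lines at the means. Open points lie above filled ones within every genotype for Prdx2, Srxn1, Gpx1, Gpx4 and Cat, while for Prdx6 the D45/KO points lie above all others.

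Srxn1, the enzyme that repairs peroxiredoxins whose cysteine was over-oxidised, was at 22.7, 86.5 and 54.7 CPM in WT/WT and at 13.8, 41.2 and 50.9 CPM in WT/D45. D45/D45 libraries had 24.1, 76.4 and 118 CPM of Srxn1. WT/KO libraries had 14.1, 10.1, 7.60, 44.5 and 50.7 CPM, and D45/KO libraries 52.1, 50.3, 36.9 and 81.0 CPM. Within WT/KO the 3 low libraries were the B-rich ones, and the 3 B-rich D45/KO libraries were all above them. The same held among B-rich libraries for Prdx2, Prdx3, Prdx6, Gpx1, Gpx4 and Cat, so it is not particular to Srxn1. How many of all genes separate in this way was not counted, and among B-rich libraries alone the test called 7.55% of genes in this comparison. D45/KO differed from WT/KO by 1.12 ± 0.60 (adjusted p = 0.927 in edgeR) and from WT/WT by 0.01 ± 0.68 (adjusted p = 0.999). WT/KO differed from WT/WT by −1.10 ± 0.64 (adjusted p = 0.818 in edgeR). With the B panel as a covariate, Srxn1 was higher in D45/KO than in WT/KO by 1.39 ± 0.24 (adjusted p = 0.00304). That fit called 3.01% of all genes in this comparison and 2.22% as higher. Against WT/WT the same fit, which called 4.18% of all genes and 2.57% as higher, gave 0.59 ± 0.28 for Srxn1 (adjusted p = 0.289) and called Prdx6 alone among the members.

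Gpx4, the glutathione peroxidase that reduces lipid peroxides in membranes, was at 124, 311 and 267 CPM in WT/WT and at 139, 185 and 253 CPM in WT/D45. D45/D45 libraries had 135, 323 and 354 CPM of Gpx4. WT/KO libraries had 92.9, 109, 73.1, 206 and 265 CPM, and D45/KO libraries 195, 317, 345 and 350 CPM. The lowest D45/KO library was below the 2 B-poor WT/KO libraries, and the other 3 were above all of WT/KO. D45/KO differed from WT/KO by 1.01 ± 0.41 (unadjusted p = 0.0243, adjusted p = 0.768 in edgeR), with a 95% interval from 0.15 to 1.88. With the B panel as a covariate it was higher by 1.12 ± 0.22 (adjusted p = 0.00656), and against WT/WT by 0.72 ± 0.26 (adjusted p = 0.139). The Gpx4 transcript shares 61.7% of its stretches of 50 bases with the pseudogene Gpx4-ps2, so how the authors' counting assigned such reads bears on its level.

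Gpx1, the cytosolic glutathione peroxidase that reduces free hydrogen peroxide, had the widest range of the abundant members. WT/WT libraries had 2474, 16184 and 30793 CPM of Gpx1, and WT/D45 libraries 2745, 12917 and 8741 CPM. D45/D45 libraries had 3984, 11307 and 17521 CPM of it. WT/KO libraries had 1980, 3323, 1842, 16262 and 13007 CPM, and D45/KO libraries 4040, 5114, 5646 and 9334 CPM. As for Prdx2, the 9 B-rich libraries (1842 to 5646 CPM) lay below the 9 B-poor ones (8741 to 30793 CPM), and over all libraries the genotypes overlapped. Among B-rich libraries alone, those of D45/KO, at 4040 to 5646 CPM, lay above those of WT/KO, at 1842 to 3323 CPM. D45/KO differed from WT/KO by −0.27 ± 0.99 (adjusted p = 0.979; 95% interval −2.37 to 1.82) and from WT/WT by −1.45 ± 1.12 (adjusted p = 0.855).

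Cat, which encodes catalase, was at 247, 1518 and 3403 CPM in WT/WT and at 252, 1415 and 989 CPM in WT/D45. D45/D45 libraries had 501, 1700 and 2517 CPM of Cat. WT/KO libraries had 295, 564, 451, 2493 and 1258 CPM, and D45/KO libraries 722, 1000, 1361 and 1513 CPM. The D45/KO libraries spanned the narrowest range of the 5 groups relative to their mean, and lay inside the WT/KO range. D45/KO differed from WT/KO by 0.18 ± 0.75 (adjusted p = 0.982; 95% interval −1.40 to 1.77) and from WT/WT by −0.58 ± 0.85 (adjusted p = 0.999).

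Over the members, 6 of 10 were above 0 for D45/KO against WT/KO, with a median log2 difference of 0.30 beside −0.15 over all genes. Against WT/WT, 4 of 10 were above 0, with a median of −0.16 beside 0.07. WT/KO against WT/WT had 2 of 10 above 0 and a median of −0.61 beside 0.26 for all genes. In the authors' deposited table for WT/WT over WT/KO, the log2 difference was above 0 for 8 of the 10 members, from 0.35 for Prdx1 to 1.37 for Srxn1, and none had a false discovery rate below 0.853. These comparisons share libraries. The interaction was above 0 for 9 of 10 members, with Prdx5 at −0.54 and a median of 0.79, beside 4890 of 13405 genes and a median of −0.26.

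**Figure D3:**
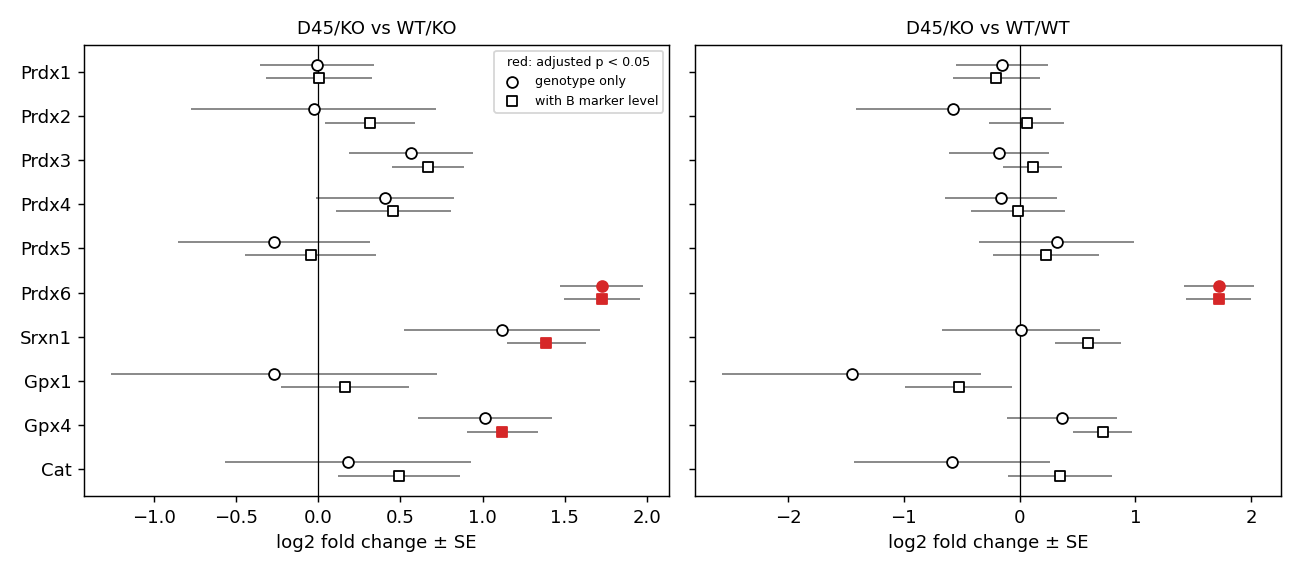
Log2 difference (x axis) of each member (y axis) with bars of 1 standard error, for D45/KO against WT/KO on the left and against WT/WT on the right (x scales differ), from the fit on genotype alone (circles) and with the B lymphocyte panel as a covariate (squares), in red where the adjusted p is under 0.05. Prdx6 lies at 1.72 in both panels in the fit on genotype alone, and for Srxn1 and Gpx4 the standard errors on the left shrink from 0.60 and 0.41 to 0.24 and 0.22 with the covariate.

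The B lymphocyte split ordered 5 of the members more completely than genotype did. Prdx2, Srxn1, Gpx1, Gpx4 and Cat had every B-poor library above every B-rich library within each of the 5 genotypes, a pattern found in 13.6% of all genes. Prdx2 and Gpx1 kept that order over all 9 against 9 libraries, as 6.06% of genes did. The ratio of median levels, B-poor over B-rich, was 3.91 for Gpx1, 3.72 for Prdx2, 3.03 for Cat, 2.41 for Srxn1, 1.98 for Gpx4, 1.62 for Prdx3 and 1.30 for Prdx4. It was 0.992 for Prdx1, 0.811 for Prdx6 and 0.494 for Prdx5. Within genotypes the ratio of mean levels for Prdx2 was 4.26 in WT/WT, 2.91 in WT/D45, 3.19 in D45/D45, 5.47 in WT/KO and 1.84 in D45/KO. D45/KO likewise had the lowest such ratio for Gpx1 (1.89, against 3.62 to 9.49 elsewhere) and Cat (1.47, against 4.20 to 9.96). The same held for Srxn1 (1.74), Gpx4 (1.23), Prdx3 (1.15) and Prdx4 (1.06), so it was not particular to the abundant members. Each of these D45/KO ratios rests on 1 B-poor library. The B-rich D45/KO libraries had B panel means of 3.44 to 5.40, against 5.43 to 6.72 in the other B-rich libraries. Their erythroid panel averaged 10.9 to 11.3, against 9.66 to 10.7 in the other B-rich libraries. The B-rich and B-poor classes were thus less far apart in D45/KO. Whether the ratios of B-poor to B-rich levels differ between genotypes was not tested.

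**Figure D4:**
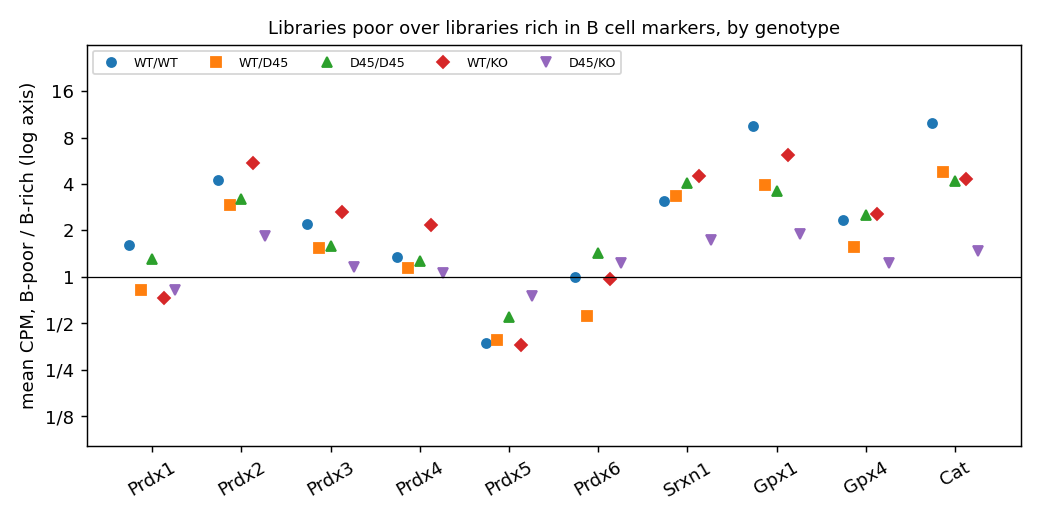
Mean level in B-poor libraries over mean level in B-rich libraries of the same genotype (logarithmic y axis, 1 marks equal levels) for each member (x axis), with 1 symbol per genotype and no error bars. Prdx2, Srxn1, Gpx1, Gpx4 and Cat lie above 1 in all 5 genotypes and Prdx5 below 1. The D45/KO symbol is the lowest for Prdx2 (1.84), Gpx1 (1.89) and Cat (1.47), and also for Srxn1, Gpx4, Prdx3 and Prdx4. D45/KO has 1 B-poor library, and its B-rich libraries had the lowest B panel means of that class.

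Set per kilobase of annotated exon, the only scale on which genes are compared with each other here, Gpx1 had the highest median over the 18 libraries, at 6710 CPM per kb. It was followed by Prdx2 at 1893, Cat at 432, Gpx4 at 181 and Prdx3 at 108 CPM per kb. Prdx1 (29.2), Prdx4 (19.3), Srxn1 (16.9), Prdx6 (15.005) and Prdx5 (8.25) formed the low end on that scale. In D45/KO, Prdx6 averaged 40.0 ± 6.56 CPM per kb (SD, n = 4) beside 33.8 ± 11.5 for Prdx1, and so stayed far below Prdx2 on that scale where it rose.

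KLF1 binds CACCC boxes, so the promoters of the 3 most abundant members, which move together across libraries, are shown: the 250 bases before the RefSeq start on GRCm38.p6, with capitals at matches to CCNCNCCC on either strand. Prdx2 is read from chr8:84969372-84969621 (+ strand), Cat from chr2:103485154-103485403 (− strand) and Gpx1 from chr9:108338830-108339079 (+ strand).
Prdx2: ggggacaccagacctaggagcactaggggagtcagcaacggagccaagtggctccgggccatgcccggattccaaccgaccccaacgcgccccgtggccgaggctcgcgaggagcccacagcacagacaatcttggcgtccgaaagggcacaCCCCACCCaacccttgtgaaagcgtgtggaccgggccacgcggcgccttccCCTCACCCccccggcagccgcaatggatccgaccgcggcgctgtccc
Cat: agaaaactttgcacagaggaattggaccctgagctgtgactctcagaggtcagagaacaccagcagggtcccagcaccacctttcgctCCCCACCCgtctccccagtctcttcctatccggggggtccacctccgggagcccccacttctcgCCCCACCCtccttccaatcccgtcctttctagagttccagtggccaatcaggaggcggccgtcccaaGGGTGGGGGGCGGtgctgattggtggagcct
Gpx1: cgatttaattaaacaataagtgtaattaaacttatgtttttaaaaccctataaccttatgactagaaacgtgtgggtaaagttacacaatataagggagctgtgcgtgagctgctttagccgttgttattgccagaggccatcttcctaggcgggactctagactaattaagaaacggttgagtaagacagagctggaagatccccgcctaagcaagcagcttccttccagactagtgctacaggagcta
Cat holds 4 matches, some of which overlap, Prdx2 holds 2 and Gpx1 holds 0. Of the 10 members, 9 are in the RefSeq promoter table and 7 of these hold a match (Prdx1 to Prdx5, Gpx4 at 3 of its 4 starts, and Cat), while 45.9% of 32851 promoters do. Prdx6 is not in that table. The core of the antioxidant response element that NRF2 binds, TGACNNNGC, was found in 1 of the 9 (Prdx1) and in 10.2% of promoters. Such letters describe the window and are no evidence of binding.

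Around the members, 74 genes of 7 lists were examined (thioredoxin system, glutathione system, other peroxidases, superoxide enzymes, NRF2 and sestrins, methionine repair, and NADPH supply), of which 66 were tested. None was called for D45/KO against WT/KO or WT/WT by edgeR, with 10 and 9 at an unadjusted p under 0.05, where 5.41% and 8.93% of all genes were. Of the 66, 30 were above 0 against WT/KO (median −0.05) and 24 against WT/WT (median −0.25). DESeq2 called 2 and 3 of them among 185 and 421 genes in all, limma-voom 0 and 0 among 67 and 75, and the fit with the B panel as a covariate 7 and 8 among 403 and 560. The list of NRF2 and sestrins also holds other genes, such as Hmox1, Nqo1, Foxo3 and Park7. It sets Nfe2l2, which encodes NRF2, beside repressors, so its genes share no single direction. That list had 10 of 12 above 0 against WT/KO, with a median of 0.42, beside 5469 of 13405 genes and a median of −0.15. Against WT/WT it had 6 above 0 (median 0.17), and WT/KO against WT/WT had 4 (median −0.16). The smallest p of that list against WT/KO belonged to Bach1, a haem-binding repressor of antioxidant genes. Bach1 was at 112 ± 15.5 CPM in D45/KO and 47.1 ± 18.3 in WT/KO (log2 difference 1.25 ± 0.33, adjusted p = 0.258 in edgeR). Next was Sesn2, a sestrin induced by oxidative stress, at 48.3 ± 12.5 and 21.7 ± 9.84 CPM (1.16 ± 0.35, adjusted p = 0.408 in edgeR). In D45/D45, Bach1 was at 103 ± 39.6 CPM, close to its D45/KO level, and Sesn2 at 28.8 ± 7.67 CPM. For D45/KO against WT/KO, Bach1 was called by DESeq2, with the replicate number as a block, with the B panel as a covariate and among B-rich libraries alone, and Sesn2 in the last 3 of these.

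In the thioredoxin list, 3 of 9 were above 0 against WT/KO, with Txnrd1, the cytosolic reductase of thioredoxin, at 0.77 ± 0.32 (adjusted p = 0.795) and Txndc17 at −0.64 ± 0.31 (adjusted p = 0.905). In the NADPH list, 5 of 9 were above 0, with the pentose phosphate enzymes G6pdx at 0.76 ± 0.26 (adjusted p = 0.547) and Tkt at 1.01 ± 0.36 (adjusted p = 0.627). In the glutathione list, 8 of 19 were above 0, and the conjugating enzymes Gstt1 and Gstt2 had −1.73 ± 0.70 (adjusted p = 0.762) and −1.24 ± 0.55 (adjusted p = 0.864). The methionine repair list also holds genes that are not methionine sulfoxide reductases, such as Sepw1, Selk and Oxr1. In it, 2 of 6 were above 0, with Sepw1 at 0.93 ± 0.36 (adjusted p = 0.742) and Msra, a methionine sulfoxide reductase, at −1.05 ± 0.58 (adjusted p = 0.927). The superoxide list had 2 of 7 above 0, with Ncf1, a subunit of the phagocyte oxidase, at −1.64 ± 1.39 (adjusted p = 0.927). The other peroxidases had 0 of 4 above 0, with Pxdn at −4.63 ± 2.22 (adjusted p = 0.905) and Gpx3, a secreted glutathione peroxidase, at −0.91 ± 1.59 (adjusted p = 0.941). Both were barely detected. Pxdn averaged 0.785 CPM in WT/KO, with a median of 0, and 0.0233 CPM in D45/KO. Gpx3 averaged 1.32 CPM in WT/KO and 0.692 CPM in D45/KO.

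The genes whose log2 CPM followed Prdx6 most closely over the 18 libraries were Cda (Pearson r = 0.93), Clint1 (0.91) and Srp72 (0.90), out of 9102 genes ranked. The points share their library, its depth and its genotype. Srp72, a part of the signal recognition particle, averaged 163 ± 15.02 CPM in D45/KO, 90.6 ± 20.2 in D45/D45, 63.5 ± 8.43 in WT/KO, 60.0 ± 9.34 in WT/WT and 57.0 ± 12.7 in WT/D45. Clint1, an adaptor for clathrin-coated vesicles, averaged 123 ± 19.4 CPM in D45/KO, 54.5 ± 3.71 in D45/D45 and 39.0 ± 8.41 in WT/WT. Cda, which encodes cytidine deaminase, averaged 13.2 ± 6.397 CPM in D45/KO, 1.24 ± 0.791 in D45/D45 and at most 0.273 in the other genotypes. The same order of D45/KO, then D45/D45, then the rest thus held for the means of Prdx6 and of these 3 genes, which were chosen for their likeness to it.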

How the data were processed

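RNA-seq of sorted spleen erythroblasts was deposited by the authors as raw counts per gene symbol for 18 libraries, with a second table that holds CPM values, the authors' log2 differences between WT/WT and WT/KO, p-values and false discovery rates, per the file headers. HISAT2, featureCounts and limma, with the mm9 build, appear without versions in the submitters' processing notes. Of the symbols, 27 were turned into dates and 2 are repeated, and none of these is named.

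Counts were fitted in R 4.3.3 with edgeR 4.0.16 (filterByExpr, TMM, quasi-likelihood test, genotype only, all 18 libraries), with p adjusted over 13405 genes and called under 0.05. Levels are TMM-scaled CPM, and log2 CPM uses a prior count of 2. Alternatives were DESeq2 1.42.0 as a test and as scaling, limma-voom 3.58.1, no count filter, a replicate block, a covariate (mean log2 CPM of 14 B lymphocyte genes), libraries above or below 3 on it, and leaving out each library. The edgeR script was tested on simulated counts. Members, gene lists and the rule for named genes (the 10 members, the 2 smallest p of each list, the 3 genes most like Prdx6) were chosen with earlier results of these data known. Some genes that the rule names are not reported here. Exons, gene order and shared sequence come from GENCODE M21 on GRCm38, a later build than the files', and promoters from RefSeq on GRCm38.p6.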

Additional observations from a re-analysis of the deposited data

How the results depend on the processing

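Prdx6 in D45/KO against WT/KO was called in each of the 9 fits that left out 1 library (1.65 to 1.87, adjusted p 0.00669 to 0.0290) and in the other alternatives run, of which B-poor libraries alone rest on 1 D45/KO library. Leaving out 1 library gave 0 to 1 members called against WT/WT, where Prdx6 ranged over 1.57 to 1.89. Against WT/KO, Prdx1 ranged over −0.27 to 0.35, Prdx2 over −0.30 to 0.40, Gpx1 over −0.56 to 0.26 and Cat over −0.053 to 0.84, and Prdx6 over −0.52 to 0.0092 in WT/D45 and −0.15 to 0.17 in WT/KO against WT/WT. For the changes below, the cause was not tested.

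Counts of members called are given with the genes called in all. The B-rich libraries of D45/KO and WT/KO were not matched in the level of the B panel or of the erythroid panel. With the B covariate, 3 members were called over the 5 genotypes (of 433 genes, 45 without it), 3 in D45/KO against WT/KO (Prdx6, Srxn1, Gpx4; of 403) and 2 in the interaction (Prdx6, Srxn1; of 24), with 7 and 8 other pathway genes against WT/KO and WT/WT, while Prdx1 stood at 0.0026, Prdx2 at 0.32, Gpx1 at 0.16 and Prdx6 in WT/KO against WT/WT at −0.0068. B-rich libraries alone gave 0 members over the 5 genotypes (of 39), 0 against WT/WT (of 10), 4 against WT/KO (also Prdx3; of 1103) and 14 other pathway genes, with Prdx2 at 1.22, Gpx1 at 1.09 and Prdx6 at 0.34 in WT/D45 and −0.0788 in WT/KO against WT/WT. B-poor libraries alone gave 1 member in the interaction (Prdx6; of 16) and 4 other pathway genes against WT/WT, with Prdx1 at 0.11, Prdx4 at −0.0456, Prdx5 at 0.49 and Cat at −0.27 against WT/KO, and Prdx6 at −0.0715 in WT/KO against WT/WT. DESeq2 called 1 member in the interaction (Prdx6; of 15) and 2 and 3 other pathway genes against WT/KO and WT/WT, with Prdx6 at 0.0593 in WT/KO against WT/WT, and its size factors in edgeR gave 0.0577. No count filter gave 0.0047 there and limma-voom 0.0027. With limma-voom, Prdx1 was at 0.14, Prdx2 at 0.31 and Gpx1 at 0.14 against WT/KO. DESeq2 size factors moved the median of all genes by −0.12 in D45/KO against WT/KO and by −0.11 in D45/D45 against WT/WT.

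No label says that a replicate number marks a shared batch or litter, and the pairs of equal number did not all correlate: 18 of 31 had deviations correlated above 0.1 (median r 0.215), and 37 of 97 other pairs did (median r −0.113). All 5 libraries numbered 1 are B-rich. The replicate block gave 2 members (Prdx6, Gpx4) against WT/KO among 128 genes called in all (23 without it; 209 and 83 against WT/WT), 4 and 2 other pathway genes against WT/KO and WT/WT, Prdx2 at 0.70, Gpx1 at 0.59 and Prdx6 at −0.0325 in WT/KO against WT/WT. Prdx6 under the block was 1.70 against WT/KO (adjusted p = 0.00970) and 1.67 against WT/WT (adjusted p = 0.0149).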
